A study of Homo sapiens with 12 samples.

Results

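Cholesterol and fatty acid synthesis was described through 31 genes of the 26485 in the count table. They were listed by symbol, with earlier results of these data known. All 31 were expressed above the filter on low counts that left 14498 genes for testing, and none was low (a level under 1 in either line, in CPM, the counts scaled to library size). They were grouped by role into 18 genes of sterol synthesis, 6 genes that regulate the SREBP factors or carry sterols, and 7 genes of fatty acid synthesis and desaturation. The data were RNA sequencing counts from COV362 and PEO1, human ovarian cancer lines widely used as models of the high-grade serous type. The 4 groups were each line, called parental in the labels, given either DMSO alone or 20 nM prexasertib, which blocks CHK1 and CHK2 kinase activity, with 3 libraries per group lettered A, B and C. All 4 groups shared a DMEM medium that held fetal bovine serum (10%, heat-inactivated) and insulin (10 µg/mL), and how long the drug was applied is not given in the sources used here.

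Cells make cholesterol from acetyl-CoA through mevalonate, farnesyl diphosphate, squalene and lanosterol, and they make fatty acids from the same precursor through malonyl-CoA. Both routes are driven by the SREBP transcription factors, which are held in the endoplasmic reticulum by SCAP and the INSIG proteins while sterols are plentiful and are released by cleavage in the Golgi when sterols run low. SREBP-2, the product of SREBF2, mainly drives sterol genes, and SREBP-1, the product of SREBF1, mainly drives fatty acid genes. Tumour cells in culture make lipids for new membranes while also taking up lipids from serum.

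SREBP factors bind a sterol regulatory element and usually act with NF-Y, which binds CCAAT, and with SP1, which binds GC boxes. RefSeq windows of 300 bases around a gene start (GRCh38.p14, 250 bases before and 50 after) matched 27 of the 31 members, all but ACAT2, FDFT1, SQLE and FASN, and were searched on both strands. For PMVK and CYP51A1, both without CCAAT, the RefSeq start lay 289 and 268 bases inside the gene of the count table. Their windows thus hold nothing upstream of that gene. The sterol regulatory element TCACNCCAC was found in 1 of 27 member windows (3.7%), against 1% of the windows of tested genes. CCAAT was found in 18 (66.7%, against 36.4%), the GC box GGGCGG in 25 (92.6%, against 70%) and the E-box CACGTG in 4 (14.8%, against 9.6%). The share over all 35116 windows was 1.13% for the sterol regulatory element, 34.6% for CCAAT, 45% for GGGCGG and 7.26% for CACGTG. Of the 9 members with a window that fell with prexasertib in PEO1, as given below, 7 held a CCAAT, as did 11 of the 18 that were not called. The matches are letters in these windows and were not tested as binding sites. The sterol regulatory element was searched only as TCACNCCAC, so other forms of it, or sites outside the windows, would be missed.

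The stretches printed here lie upstream of both the RefSeq start and the first exon of the count table, and belong to genes on which the results turn. They are written in the direction of transcription, with each CCAAT (on the other strand ATTGG) and the sterol regulatory element in capitals. SREBF2 (chr22:41832855-41833078, plus strand) holds the single match to TCACNCCAC, which starts 133 bases before the RefSeq start. MVD (chr16:88663150-88663341, minus strand), LSS (chr21:46228825-46229024, minus strand) and DHCR7 (chr11:71448432-71448643, minus strand) are sterol genes that fell in PEO1. MSMO1 (chr4:165327419-165327665, plus strand) is a sterol gene with 4 CCAAT boxes that was not called, and SCAP (chr3:47475956-47476191, minus strand) fell in PEO1 with no CCAAT in its window.
SREBF2: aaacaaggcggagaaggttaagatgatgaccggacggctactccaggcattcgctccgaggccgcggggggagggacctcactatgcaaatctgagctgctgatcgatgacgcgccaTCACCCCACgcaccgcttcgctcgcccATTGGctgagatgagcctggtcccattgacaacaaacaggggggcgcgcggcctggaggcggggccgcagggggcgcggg
MVD: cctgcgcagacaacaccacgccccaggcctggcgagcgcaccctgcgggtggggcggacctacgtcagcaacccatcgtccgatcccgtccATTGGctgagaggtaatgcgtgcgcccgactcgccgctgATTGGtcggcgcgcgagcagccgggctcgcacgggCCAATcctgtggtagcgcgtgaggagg
LSS: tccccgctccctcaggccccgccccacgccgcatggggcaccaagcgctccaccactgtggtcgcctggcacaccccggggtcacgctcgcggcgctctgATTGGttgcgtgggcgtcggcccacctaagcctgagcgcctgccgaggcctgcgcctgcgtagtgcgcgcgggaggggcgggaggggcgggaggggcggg
DHCR7: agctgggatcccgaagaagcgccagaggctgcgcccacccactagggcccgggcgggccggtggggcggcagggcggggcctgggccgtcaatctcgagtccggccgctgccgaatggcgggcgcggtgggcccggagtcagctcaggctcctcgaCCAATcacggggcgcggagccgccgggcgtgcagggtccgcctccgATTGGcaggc
MSMO1: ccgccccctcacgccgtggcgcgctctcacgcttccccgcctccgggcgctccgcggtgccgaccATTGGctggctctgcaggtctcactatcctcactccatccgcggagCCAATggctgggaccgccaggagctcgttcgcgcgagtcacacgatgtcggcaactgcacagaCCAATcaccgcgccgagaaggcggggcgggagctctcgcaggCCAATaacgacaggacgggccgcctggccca
SCAP: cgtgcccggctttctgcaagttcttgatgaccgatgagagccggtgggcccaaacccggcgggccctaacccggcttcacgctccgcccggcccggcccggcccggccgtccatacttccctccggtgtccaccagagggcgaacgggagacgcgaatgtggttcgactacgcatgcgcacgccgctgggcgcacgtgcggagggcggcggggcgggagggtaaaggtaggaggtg

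Library totals ranged from 9390790 to 18262805 counts. Of 8 markers of high-grade serous carcinoma, all were detected in COV362, while the folate receptor gene FOLR1 was listed at 0 in the 3 PEO1 DMSO libraries. Of these 8 markers, 5 fell in PEO1 with prexasertib (PAX8, WT1, KRT7, KRT8 and KRT18; 14.6% of all tested genes fell) and 0 in COV362 (0.221%), and the summed level in PEO1 was 6532 to 7648 CPM under DMSO and 3420.2 to 4013 CPM under prexasertib. In COV362 the treated libraries lay below the DMSO libraries for the marker MUC16 (log2 −1.16 ± 0.31 SE). It was not called by edgeR (adjusted p = 0.108) or limma-voom (0.0651), but was called by DESeq2 (0.0202). The 8 markers of other cells were near 0 apart from CD68, a lysosomal protein gene at 35.6 ± 1.98 CPM in PEO1 DMSO. Without CD68 they summed to 0.196 to 0.660 CPM in PEO1 DMSO, 0.879 to 2.78 CPM in PEO1 prexasertib, 5.37 to 7.26 CPM in COV362 DMSO and 4.26 to 5.12 CPM in COV362 prexasertib. The leukocyte gene PTPRC and the T cell gene CD3E did not pass 0.235 CPM in any library. Relative to the mean of their own group, the A libraries of all 4 groups favoured short genes and the B libraries long genes. The Spearman rho across genes between the deviation from that mean and exon length was −0.413 to −0.348 in A and 0.133 to 0.439 in B. The C libraries differed between the PEO1 groups, at 0.325 under DMSO and −0.0536 under prexasertib, and were at 0.0859 and 0.115 in COV362.

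Under DMSO, PEO1 carried more transcript of most of these genes than COV362. Of the 31 members, 21 were higher in PEO1 and 4 lower, against 29.1% and 28.6% of all tested genes, by edgeR's quasi-likelihood test with Benjamini-Hochberg adjustment over all tested genes (adjusted p under 0.05, the call used throughout). The median log2 difference was 1.02 over the members, and 25 of 31 lay above 0. By role, 14 of 18 sterol genes were higher and 2 lower, 3 of 6 regulators were higher and 1 lower, and 4 of 7 fatty acid genes were higher and 1 lower. The 3 PEO1 libraries lay above the 3 COV362 libraries for 21 members and below them for 4, against 32.4% and 31.1% of all tested genes. In bulk libraries a lower level in all cells cannot be told apart from fewer cells of a kind that expresses the gene. Nothing in the labels says that the libraries come from separate cultures, so the p-values measure only the spread between these samples.

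FASN and HMGCS1 had the highest differences, and their order lies within the SE of either. FASN, the fatty acid synthase that builds palmitate, was at 20.0, 41.3 and 41.8 CPM in COV362 DMSO and at 174, 205 and 363 CPM in PEO1 DMSO (A, B and C in turn, as in every series of 3 values here). The lines did not overlap, the PEO1 C library lay far above the other two, and the difference was 7.14-fold (log2 2.84 ± 0.39 SE, adjusted p = 2.52e-05; log2 2.45 without that library). HMGCS1, the synthase that makes HMG-CoA for the mevalonate route, was at 33.3, 57.8 and 42.6 CPM in COV362 and 284, 344 and 324 CPM in PEO1, 7.09-fold higher (log2 2.83 ± 0.22 SE, adjusted p = 1.01e-07). STARD4, which carries sterol between membranes, was at 4.23, 6.24 and 4.17 CPM and 23.7, 21.8 and 26.2 CPM, 4.83-fold higher in PEO1 (log2 2.27 ± 0.19 SE, adjusted p = 2.4e-07). For both, every PEO1 library lay above every COV362 library.

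The 4 members lower in PEO1 were spread over the roles. PMVK, phosphomevalonate kinase, was at 90.7, 56.0 and 63.3 CPM in COV362 DMSO against 25.5, 24.6 and 19.2 CPM in PEO1 DMSO, a log2 difference of −1.60 ± 0.27 (SE, adjusted p = 0.000154). FDPS, which makes farnesyl diphosphate, was at 484, 440.1 and 409 CPM against 213, 213 and 182 CPM. FADS2, the desaturase that opens the route to long polyunsaturated fatty acids, differed by log2 −0.96 ± 0.13 (SE, adjusted p = 2.11e-05), and SCAP by −0.50 ± 0.14 (SE, adjusted p = 0.00804). The 6 members not called between the lines were ACAT2, EBP, SREBF1, INSIG2, ACACA and FADS1, with log2 differences of −0.18 (EBP) to 0.41 (ACACA).

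**Figure D1:**
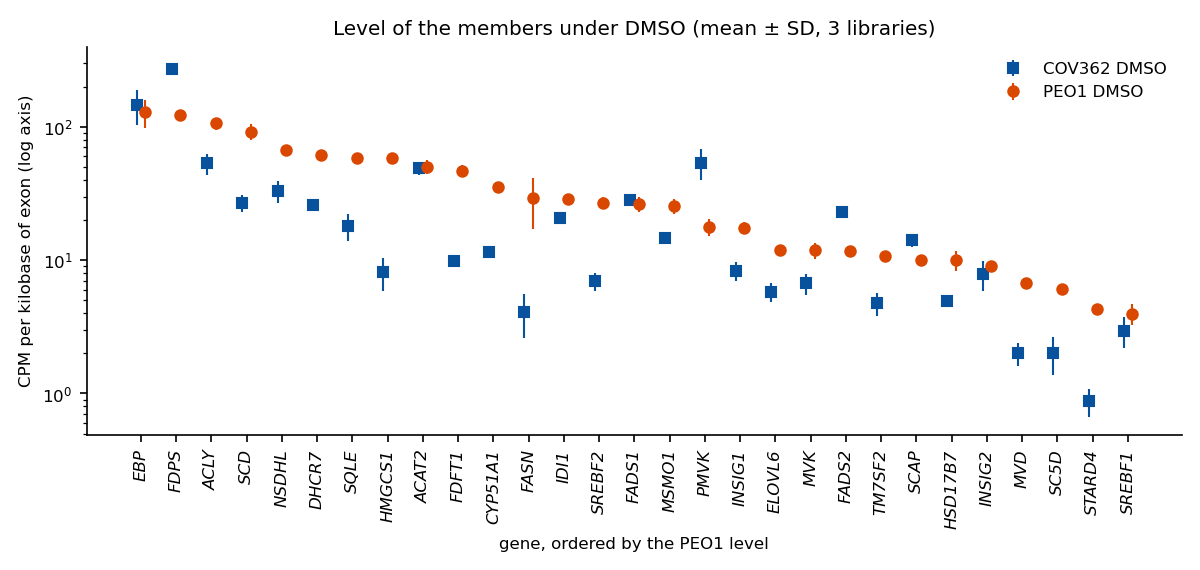
Level of 29 members under DMSO in CPM per kilobase of exon (log axis), with squares for COV362 and circles for PEO1, points as means and bars as SD over 3 libraries. LSS and ACACA are not drawn because their deposited exon length counts a second sequence; FASN, HMGCS1 and STARD4 show the widest gaps, and PMVK, FDPS, SCAP and FADS2 lie lower in PEO1.

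Per kilobase of exon, which allows levels to be compared between genes, the order of the members differed between the lines. In PEO1 DMSO the highest levels were EBP (129 ± 31.4 CPM per kilobase, SD, n = 3), FDPS (123 ± 10.8), ACLY (106 ± 11.0) and SCD (92.3 ± 13.1), neighbours whose SD ranges met. The lowest were SREBF1 (3.96 ± 0.693) and STARD4 (4.28 ± 0.396), which also met. In COV362 DMSO, FDPS led with 269.9 ± 23.0 CPM per kilobase and STARD4 was lowest with 0.876 ± 0.212. SREBF2 was at 27.0 ± 2.58 in PEO1 and 6.96 ± 1.11 in COV362, against 3.96 ± 0.693 and 2.97 ± 0.757 for SREBF1. Gene counts do not separate the isoforms of SREBF1.

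With prexasertib, 13 of the 31 members fell in PEO1 and 0 rose, where 14.6% of all tested genes fell and 14.7% rose. The 13 were 8 of 18 sterol genes, 2 of 6 regulators and 3 of 7 fatty acid genes. The median log2 fold change was −0.46 over the members (28 of 31 below 0) and 0.01 over all tested genes. By role it was −0.44 for sterol synthesis, −0.41 for the regulators and −0.52 for fatty acid synthesis. All treated libraries lay below all DMSO libraries for 21 members, and above them for SC5D and INSIG2, where 25% of all tested genes did so in each direction. DESeq2 called 18 members lower, where 2738 of the 14498 tested genes fell. Limma-voom called 15 lower (2280) and 1 higher (2360). With a correction for exon length there were 20 lower members (19.9% of all tested genes) and 1 higher, SC5D (15.9%). The correction used the deposited lengths, which for ACACA and LSS, both among the 20, count a second sequence. With a required change of more than 1.5-fold there were 3 lower members (3.08%): DHCR7, LSS and FADS2.

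**Figure D2:**
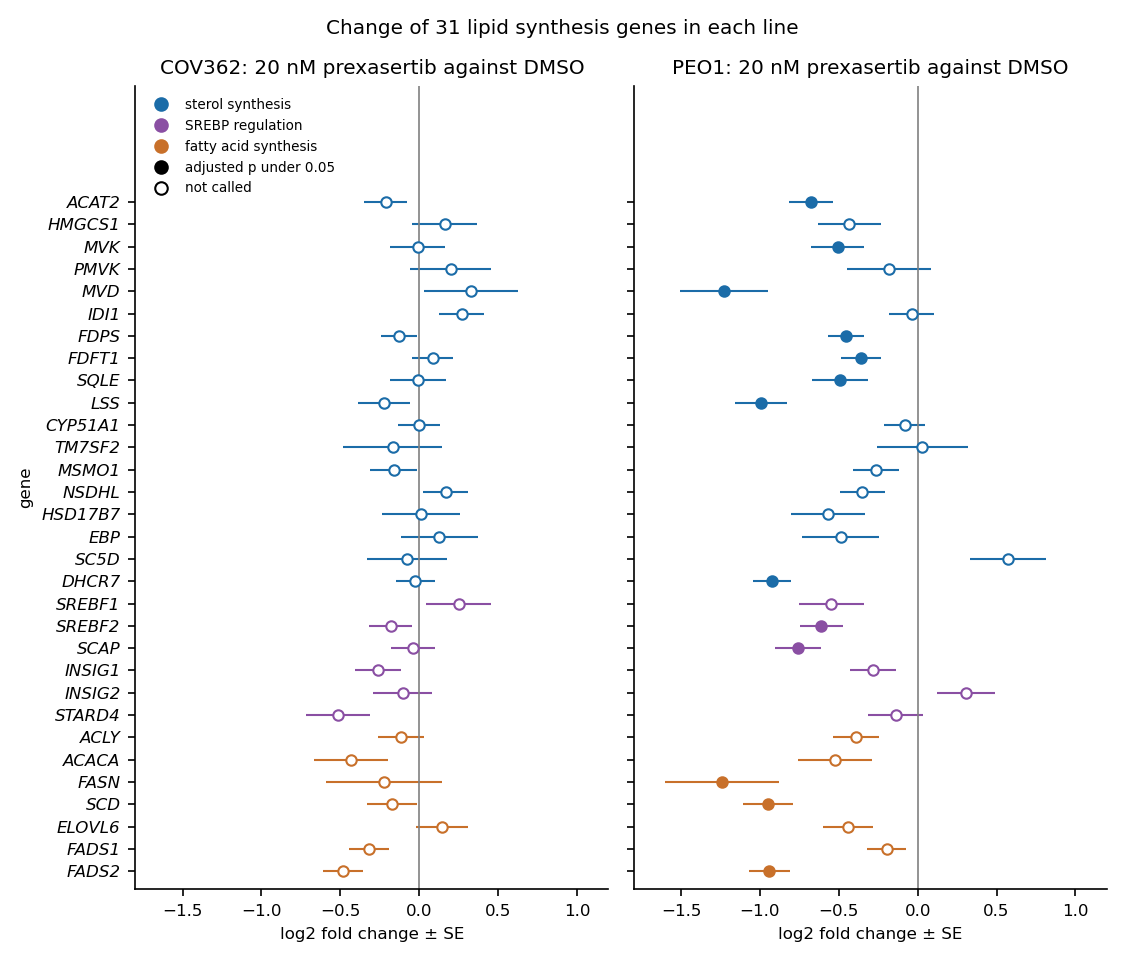
Log2 fold change of each member with 20 nM prexasertib in COV362 (left) and PEO1 (right), with bars for the SE from the fit over 12 libraries, colours for the roles and filled points for calls. The 13 filled points are all in PEO1 and all below 0, from FASN (−1.24) to FDFT1 (−0.36), while SC5D and INSIG2 lie on the other side.

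Among the sterol genes the changes of MVD, LSS and DHCR7 were the largest in the fit, with SE ranges that met. MVD, the decarboxylase that closes the mevalonate route, was at 13.5, 12 and 12.3 CPM in PEO1 DMSO and at 5.70, 4.45 and 5.98 CPM after prexasertib. Every treated library lay below every DMSO library, with a log2 fold change of −1.23 ± 0.28 (SE, adjusted p = 0.00527). LSS, which closes squalene epoxide into lanosterol, went from 55.4, 58.9 and 68.4 to 28.9, 28.4 and 34.4 CPM, 1.99-fold lower (log2 −0.99 ± 0.16 SE, adjusted p = 0.000690). DHCR7, a reductase that acts at the end of cholesterol synthesis, went from 153, 169 and 168 to 78.4, 86.2 and 94.1 CPM (log2 −0.92 ± 0.12 SE, adjusted p = 0.000141). For LSS and DHCR7 too the groups did not overlap.

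The other called sterol genes moved less. ACAT2, the thiolase that joins acetyl-CoA units, went from 96.0, 107 and 84.3 to 53.8, 65.1 and 60.8 CPM (log2 −0.68 ± 0.14 SE, adjusted p = 0.00267). Of its exon length, 23.8% lies under TCP1 on the opposite strand, and the library kit keeps no strand, so reads there cannot be assigned. MVK, mevalonate kinase, went from 27.9, 21.4 and 24.4 to 15.2, 18.4 and 18.2 CPM (log2 −0.51 ± 0.17 SE, adjusted p = 0.0365). SQLE, squalene epoxidase and a rate-limiting enzyme of the later pathway, went from 163, 189.9 and 174 to 109.6, 139 and 127 CPM (log2 −0.49 ± 0.17 SE, adjusted p = 0.0481). In all 3 genes the treated libraries lay below the DMSO libraries. FDPS was at 202 ± 17.8 CPM (SD, n = 3) under DMSO and 148 ± 9.64 under prexasertib, with log2 −0.46 ± 0.12 (SE) and an adjusted p of 0.00965 in edgeR. FDFT1, squalene synthase, was at 205 ± 20.5 and 159.5 ± 5.02 CPM, with log2 −0.36 ± 0.13 and an adjusted p of 0.0455 in edgeR. Among these genes the calls of MVK, SQLE and FDFT1 depended on single libraries. Without 1 library they ended for MVK in 4 of 12 cases (PEO1 DMSO A or C, PEO1 prexasertib A or C; edgeR adjusted p 0.0505 to 0.101), and for SQLE and FDFT1 in 7 each. The SQLE call ended without any of PEO1 DMSO A, B and C, PEO1 prexasertib A and C, or C of either COV362 group (edgeR adjusted p 0.0515 to 0.120). The FDFT1 call ended without any of PEO1 DMSO B and C, PEO1 prexasertib A, B and C, or C of either COV362 group (edgeR adjusted p 0.0546 to 0.127).

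**Figure D3:**
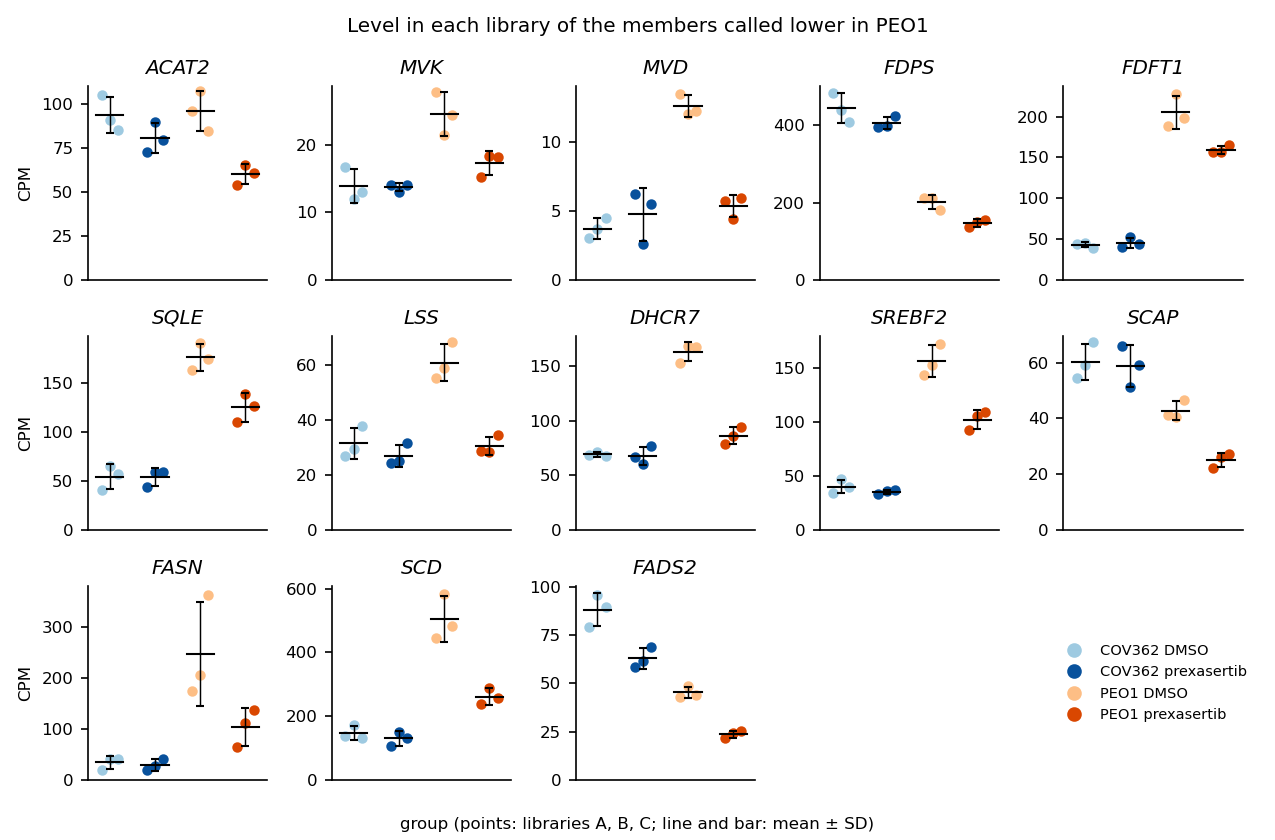
CPM in each of 12 libraries for the 13 members that fell in PEO1 with prexasertib, one panel per gene, points in the order A, B, C within a group and lines and bars for mean ± SD. In every panel the 3 treated PEO1 libraries lie below the 3 PEO1 DMSO libraries; FASN shows the widest spread, with its PEO1 DMSO C library at 363 CPM.

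The remaining 10 sterol genes were not called. NSDHL, at 109 ± 10.3 and 85.8 ± 3.48 CPM (log2 −0.35 ± 0.14, edgeR adjusted p = 0.0779), and HSD17B7 (log2 −0.57 ± 0.23, edgeR adjusted p = 0.0843) were near the threshold and passed it in DESeq2 (adjusted p = 0.0367 and 0.0404), though not in limma-voom (0.0610 and 0.0570); both act in demethylating the sterol ring, and reads of HSD17B7 may be shared with pseudogene copies. SC5D, the lathosterol desaturase, had its 3 treated libraries above the DMSO ones, at 61.7, 71.4 and 60.6 against 39.0, 46.4 and 44.7 CPM (log2 0.57 ± 0.24, edgeR adjusted p = 0.0886, limma-voom 0.0381, DESeq2 0.0876). HMGCS1, at 284, 344 and 324 and 208, 252 and 244 CPM, had separate groups. The 95% interval of its log2 change was −0.87 to −0.0027 (edgeR adjusted p = 0.119). EBP, the sterol isomerase, had an interval of −1.01 to 0.04, and MSMO1, a methylsterol oxidase, one of −0.58 to 0.05. With the correction for exon length, edgeR called HMGCS1 and EBP lower (adjusted p = 0.00595 and 0.0202), as it did in PEO1 alone (0.0103 and 0.0351). Neither was called by DESeq2 (adjusted p = 0.0744 and 0.116) or limma-voom (0.0837 and 0.155). The intervals were −0.36 to 0.20 for CYP51A1, the lanosterol demethylase, −0.34 to 0.26 for the isomerase IDI1, −0.75 to 0.38 for PMVK and −0.59 to 0.65 for the sterol reductase TM7SF2. Along the pathway, LSS at −0.99 is followed by CYP51A1 at −0.08, a difference between genes that was not tested.

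Both SREBF2 and SCAP fell among the regulators. SREBF2 was at 144, 153 and 173 CPM in PEO1 DMSO and 92.3, 105 and 109 CPM under prexasertib, a log2 fold change of −0.61 ± 0.14 (SE, adjusted p = 0.00438). SCAP, the escort that carries the SREBP precursors to the Golgi, went from 41.1, 40.4 and 46.6 to 22.4, 26.2 and 27.1 CPM (log2 −0.76 ± 0.14 SE, adjusted p = 0.00162). The treated and DMSO libraries did not overlap in either gene. SREBF1 was at 17.8, 17.9 and 23.8 and 11.9, 14.6 and 14.2 CPM, did not overlap either, and missed the threshold in edgeR (log2 −0.55 ± 0.21 SE, adjusted p = 0.0604). DESeq2 gave it an adjusted p of 0.0192, and limma-voom one of 0.0480.

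The INSIG genes, whose products hold SCAP in the endoplasmic reticulum, lay on opposite sides of 0 without a call. INSIG1, itself a sterol-sensitive SREBP target, was at 57.7, 56.1 and 47.8 CPM in PEO1 DMSO and 44.9, 40.3 and 47.7 under prexasertib, with a 95% interval of the log2 change of −0.59 to 0.03. INSIG2 was at 23.8, 22.6 and 23.8 and 30.1, 26.9 and 29.9 CPM, with an interval of −0.08 to 0.70. Each pair of groups was separate, though for INSIG1 by a narrow gap. STARD4 was at 23.7, 21.8 and 26.2 and 20.8, 23.2 and 20.9 CPM, overlapped, and had an interval of −0.51 to 0.23.

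In fatty acid synthesis all 7 members had negative values and 3 were called. FASN was at 174, 205 and 363 CPM in PEO1 DMSO and 64.3, 112 and 138 CPM under prexasertib, a log2 fold change of −1.24 ± 0.36 (SE, adjusted p = 0.0197). Its A library was the lowest of each of the 4 groups. The PEO1 DMSO C library, its highest, favoured long genes relative to the PEO1 DMSO mean (rho 0.325). Each rho is relative to the library's own group, so it does not compare DMSO with prexasertib. The call ended without the PEO1 DMSO C library (log2 −0.91, edgeR adjusted p = 0.0891) or without the PEO1 prexasertib A library (log2 −1.04, edgeR adjusted p = 0.0679), and with the correction for exon length the log2 change was −1.38 (edgeR adjusted p = 0.00144). SCD, the desaturase that makes oleate, went from 446, 584 and 483 to 239, 289 and 256 CPM, 1.93-fold lower (log2 −0.95 ± 0.16 SE, adjusted p = 0.000754). FADS2 went from 43.0, 48.6 and 44.2 to 21.6, 24.1 and 25.1 CPM, 1.92-fold lower (log2 −0.94 ± 0.13 SE, adjusted p = 0.000194). Neither SCD nor FADS2 had overlapping groups, and both were called without any 1 of the 12 libraries.

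The other fatty acid genes lay between log2 −0.20 and −0.52. ELOVL6, which lengthens palmitate, was at 40.6 ± 2.04 and 30.0 ± 1.83 CPM (SD, n = 3), with an edgeR adjusted p of 0.0515; DESeq2 (0.00944), limma-voom (0.0295) and edgeR with RLE size factors (0.0334) called it. ACLY, which frees acetyl-CoA from citrate, was at 464 ± 48.2 and 354 ± 15.6 CPM, with an edgeR adjusted p of 0.0567 (DESeq2 0.0149, limma-voom 0.0530). ACACA, the acetyl-CoA carboxylase that makes malonyl-CoA, was at 151, 196 and 189.8 CPM under DMSO and 96.7, 159 and 118 CPM under prexasertib, and the groups overlapped. Its log2 change was −0.52 ± 0.23 (edgeR adjusted p = 0.109); its call under the correction for exon length rests on the length that counts a second sequence. FADS1, the desaturase beside FADS2 on chromosome 11, overlapped too, with a 95% interval of the log2 change of −0.47 to 0.07. The exons of FADS1 and FADS2 share 142 bases on opposite strands.

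**Figure D4:**
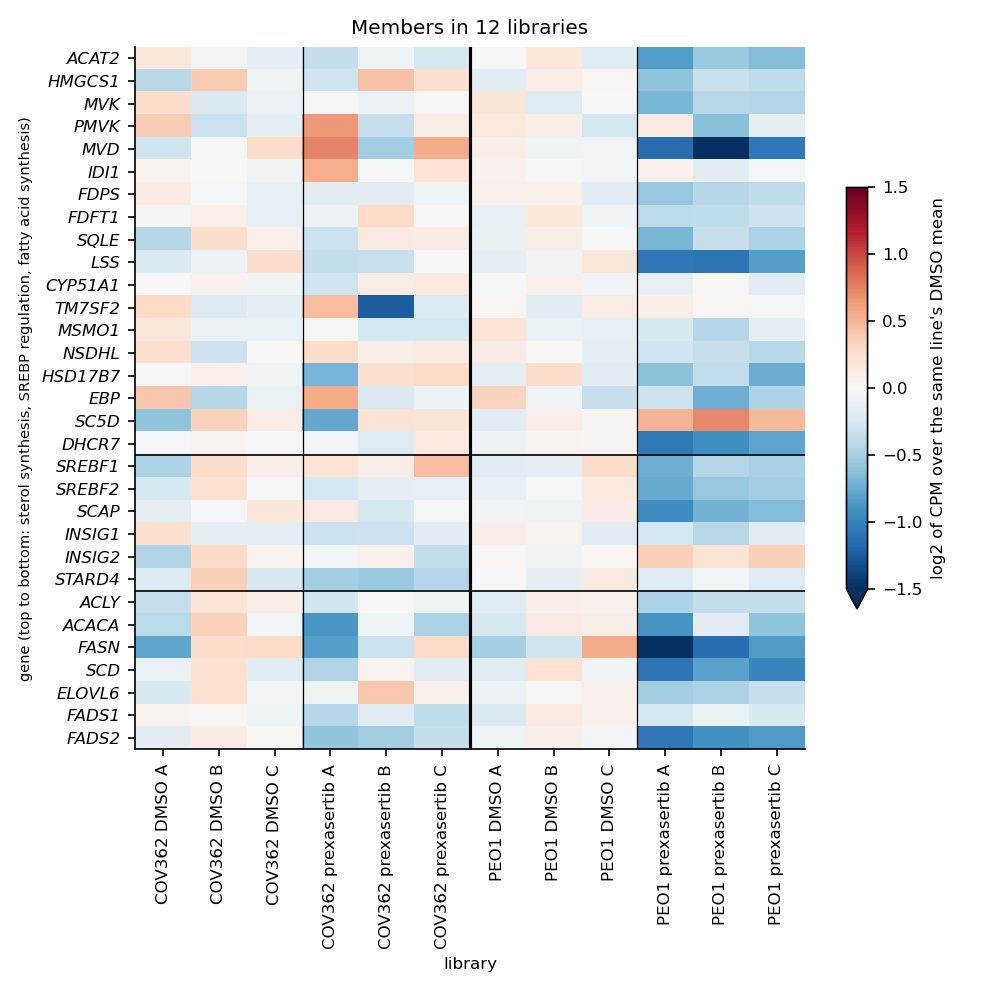
Log2 of CPM over the DMSO mean of the same line for 31 members (rows, by role) in 12 libraries (columns); the scale ends at −1.5, with FASN in PEO1 prexasertib A beyond it and MVD in PEO1 prexasertib B at its end. Most rows are blue in the 3 PEO1 prexasertib columns, SC5D and INSIG2 are red there, and the COV362 columns are mixed. Strong cells in COV362 include TM7SF2 in prexasertib B (3.21 CPM, DMSO mean 7.58) and MVD in prexasertib A (6.22 CPM, DMSO mean 3.73). The A and B libraries are unlike within COV362 DMSO in rows such as FASN and ACACA.

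In COV362 no member was called with prexasertib by edgeR, where 0.221% of all tested genes fell and 0.607% rose. The median log2 fold change was −0.08 (−0.01 over all tested genes), from −0.52 (STARD4) to 0.33 (MVD). By role the median was 0.00 for sterol synthesis, −0.14 for the regulators and −0.22 for fatty acid synthesis. At an unadjusted p under 0.05 there were 3 lower members (FADS2, STARD4 and FADS1) and 0 higher, against 6.29% and 6.33% of all tested genes. DESeq2 called 1 lower member, FADS2 (1.67% of all tested genes), and limma-voom 0 (0.352%). The 95% intervals of the 31 log2 changes reached from −1.01 to 0.97.

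The lowest values in COV362 were in fatty acid genes and STARD4. FADS2 was at 78.9, 95.8 and 89.5 CPM in DMSO and 58.4, 61.4 and 68.9 CPM under prexasertib, with no overlap (log2 −0.49 ± 0.13 SE, edgeR adjusted p = 0.10). FADS1, at 129, 127 and 119 and 93.1, 112 and 96.0 CPM, did not overlap either (log2 −0.32 ± 0.13 SE, edgeR adjusted p = 0.302). ACACA was at 102, 172 and 131 and 73.8, 129 and 97.2 CPM, lower under prexasertib within each letter. Same-letter COV362 libraries deviated together for A and B. The C pair was weak (correlation 0.133, against 0.138 between DMSO B and prexasertib C). With the letter as a block in edgeR, 3 members fell, where 7.9% of all tested genes fell. They were FADS2 (adjusted p = 0.000736), ACACA (adjusted p = 0.000779) and FADS1 (adjusted p = 0.0125). With the block in COV362 alone, an alternative chosen after seeing the data, only FADS2 fell (edgeR adjusted p = 0.0198), where 2.21% of all tested genes fell.

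STARD4 was at 4.23, 6.24 and 4.17 and 3.44, 3.33 and 3.59 CPM in COV362, and INSIG1 at 30.4, 23.3 and 23.4 and 20.6, 20.7 and 22.8 CPM. Neither gene overlapped between the groups, and together with FADS1 and FADS2 they were the 4 members with all treated libraries below, where 7.63% of all tested genes did so. No member had all treated libraries above, where 6.82% of all tested genes did. The log2 changes were −0.52 ± 0.20 (edgeR adjusted p = 0.290) and −0.26 ± 0.15 (edgeR adjusted p = 0.511). The SREBP genes overlapped between the groups. SREBF1 was at 10.6, 18 and 15.8 CPM in DMSO and 17.1, 15.9 and 20.4 CPM under prexasertib, and SREBF2 at 34.2, 47.0 and 39.5 and 33.6, 36.2 and 36.9 CPM. SCAP was at 54.6, 59.0 and 67.3 and 66.1, 51.1 and 59.0 CPM, and INSIG2 at 14.8, 24.9 and 20.9 and 19.7, 21.3 and 15.8 CPM. The 95% intervals of their log2 changes were −0.20 to 0.70, −0.48 to 0.12, −0.34 to 0.26 and −0.50 to 0.29 in the same order.

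By edgeR the members with the largest changes in PEO1 were not called in COV362. Of these, FADS2, given above, had separate groups in COV362 and was called there by DESeq2 (adjusted p = 0.00473). MVD was at 3.02, 3.67 and 4.50 CPM in COV362 DMSO and 6.22, 2.59 and 5.47 CPM under prexasertib. LSS was at 27.1, 29.6 and 37.8 and 24.5, 25.0 and 31.6 CPM, and DHCR7 at 68.4, 71.7 and 67.6 and 67.1, 60.5 and 76.6 CPM. All 3 overlapped between the groups. The fatty acid genes FASN (20.0, 41.3 and 41.8 and 19.3, 27.6 and 42.0 CPM) and SCD (137, 172 and 132 and 108, 152 and 131 CPM) overlapped as well. ACAT2 was at 105, 90.9 and 85.1 and 72.8, 89.7 and 79.5 CPM, MVK at 16.7, 12 and 13.0 and 14.1, 13.1 and 14.1 CPM, SQLE at 40.4, 65.1 and 57.3 and 43.6, 59.3 and 59.3 CPM, and HMGCS1 at 33.3, 57.8 and 42.6 and 36.4, 60.5 and 53.2 CPM. These 4 overlapped too.

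Whether the lines differed was tested as the difference of the changes, PEO1 minus COV362, in the same fit. It passed for 2 members, MVD and DHCR7, both sterol genes and both more negative in PEO1, where 2.97% of all tested genes were called lower, and no member was more positive (3.14%). The MVD difference was −1.56 ± 0.41 (SE, adjusted p = 0.0414), from 0.33 in COV362 and −1.23 in PEO1. This call ended without any 1 of 11 of the 12 libraries (edgeR adjusted p 0.0517 to 0.102), and held without COV362 prexasertib B. The DHCR7 difference was −0.90 ± 0.17 (SE, adjusted p = 0.0117), and it held without any 1 of the 12 libraries. SCAP (−0.72 ± 0.20, edgeR adjusted p = 0.0504), SCD (−0.77 ± 0.22, edgeR adjusted p = 0.0556) and LSS (−0.77 ± 0.23, edgeR adjusted p = 0.0641) were just outside the call. The median difference was −0.45 over the members and 0.03 over all tested genes, with −0.47 for sterol synthesis, −0.23 for the regulators and −0.45 for fatty acid synthesis. For FADS2 the difference was −0.45 ± 0.18 (edgeR adjusted p = 0.139), with a 95% interval of −0.84 to −0.07.

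The choice of tool moved this count widely. DESeq2 called 8 members more negative in PEO1 (8.73% of all tested genes), limma-voom 1 (2.69%) and edgeR with the correction for exon length 10 (6.01%), among them LSS, whose deposited length counts a second sequence. For the other 29 members a call in PEO1 beside none in COV362 does not show that the lines differed. The difference shares its libraries with both drug comparisons, and the PEO1 DMSO libraries enter the comparison of the lines under DMSO as well.

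Lists of neighbouring lipid genes, 6 lists of 81 genes of which 73 were tested, moved in both directions in PEO1. Over these 73 genes, 21 fell and 6 rose, with a median log2 change of −0.09, where 14.6% of all tested genes fell and 14.7% rose. The share that rose was below that of all tested genes in each of the 6 lists, and the share that fell was above it in each, over 9 to 15 tested genes a list; no list was tested as a whole. Among genes of SREBP processing and decay, 3 of 11 fell (14.6% of all tested genes) and 0 rose (14.7%). Those that fell included MBTPS1, the protease that first cuts the SREBP precursor (log2 −0.51 ± 0.14, edgeR adjusted p = 0.0155) and SEC24C, a coat protein of vesicles that leave the endoplasmic reticulum (log2 −0.32 ± 0.11, edgeR adjusted p = 0.0405). Among other SREBP targets, 4 of 15 tested fell and 1 rose. PCYT2, of phosphatidylethanolamine synthesis, went from 49.1, 37.9 and 42.6 to 18.2, 16.0 and 18.3 CPM (log2 −1.30 ± 0.18 SE, edgeR adjusted p = 0.000193). FADS3, the neighbour of FADS1 and FADS2 on chromosome 11, went from 26.6, 28.0 and 32.3 to 13.6, 12.7 and 14.9 CPM (log2 −1.08 ± 0.19 SE, edgeR adjusted p = 0.00103). NPC1, which exports cholesterol from lysosomes, rose from 38.2, 52.3 and 50.7 to 68.6, 103 and 86.1 CPM (log2 0.87 ± 0.27 SE, edgeR adjusted p = 0.0248). Each of these 3 genes had separate groups.

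Genes of the oxysterol receptors (LXR) and sterol efflux had 1 of 11 higher and 3 lower in PEO1 (14.7% and 14.6% of all tested genes). MYLIP, an LXR target whose product marks lipoprotein receptors for decay, rose from 2.81, 5.21 and 5.0 to 32.1, 34.5 and 34.1 CPM, 7.67-fold (log2 2.94 ± 0.28 SE, edgeR adjusted p = 1.03e-05). In COV362 MYLIP was at 7.86, 3.67 and 4.82 and 11.5, 10.4 and 8.83 CPM (log2 0.95 ± 0.28 SE, edgeR adjusted p = 0.138, with the letter as a block 0.000941). The groups were separate in both lines. The LXR targets ABCA1 (0.973 ± 0.735 and 1.75 ± 1.28 CPM, SD, n = 3) and ABCG1 (0 in each PEO1 DMSO library, 0.0549 to 0.294 CPM under prexasertib) were not called. The transporter genes ABCA2 (−1.54 ± 0.29, edgeR adjusted p = 0.00153) and ABCG4 (−1.78 ± 0.50, edgeR adjusted p = 0.0160), the latter at no more than 2.47 CPM in any PEO1 library, fell.

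Among 15 tested genes of fatty acid elongation and activation, 2 rose and 4 fell in PEO1, the first close to the 14.7% of all tested genes that rose and the second beside 14.6% that fell. ELOVL4, which makes very long chains, rose from 6.69 ± 0.740 to 16.1 ± 2.61 CPM (SD, n = 3; edgeR adjusted p = 0.00319), as did ELOVL7 from 20.4 ± 3.18 to 34.9 ± 1.04 CPM (edgeR adjusted p = 0.0123). ACSL5, an acyl-CoA synthetase, fell from 51.3 ± 8.81 to 29.2 ± 0.466 CPM (edgeR adjusted p = 0.00617). Of 12 tested genes of lipid storage and uptake, 5 fell (14.6% of all tested genes) and 1 rose (14.7%). The 3 with the largest changes were SOAT2, which esterifies cholesterol (log2 −1.20 ± 0.40, edgeR adjusted p = 0.0348), AGPAT2, of glycerolipid synthesis (−0.96 ± 0.26, adjusted p = 0.0139), and the receptor gene LRP1 (−0.94 ± 0.22, adjusted p = 0.00694). Of 9 tested genes of AMPK, the energy-sensing kinase that inhibits acetyl-CoA carboxylase, and of ChREBP and related factors, 1 rose and 2 fell. The AMPK subunit gene PRKAB2 rose (log2 1.26 ± 0.24, edgeR adjusted p = 0.00193). The subunit gene PRKAG2 (−0.60 ± 0.14, edgeR adjusted p = 0.00643) and MLXIP, of a factor related to ChREBP (−0.39 ± 0.11, edgeR adjusted p = 0.0171), fell. In COV362 no gene of these 6 lists was called by edgeR; at an unadjusted p under 0.05, 8 were higher and 2 lower, where 6.33% and 6.29% of all tested genes were.

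**Figure D5:**
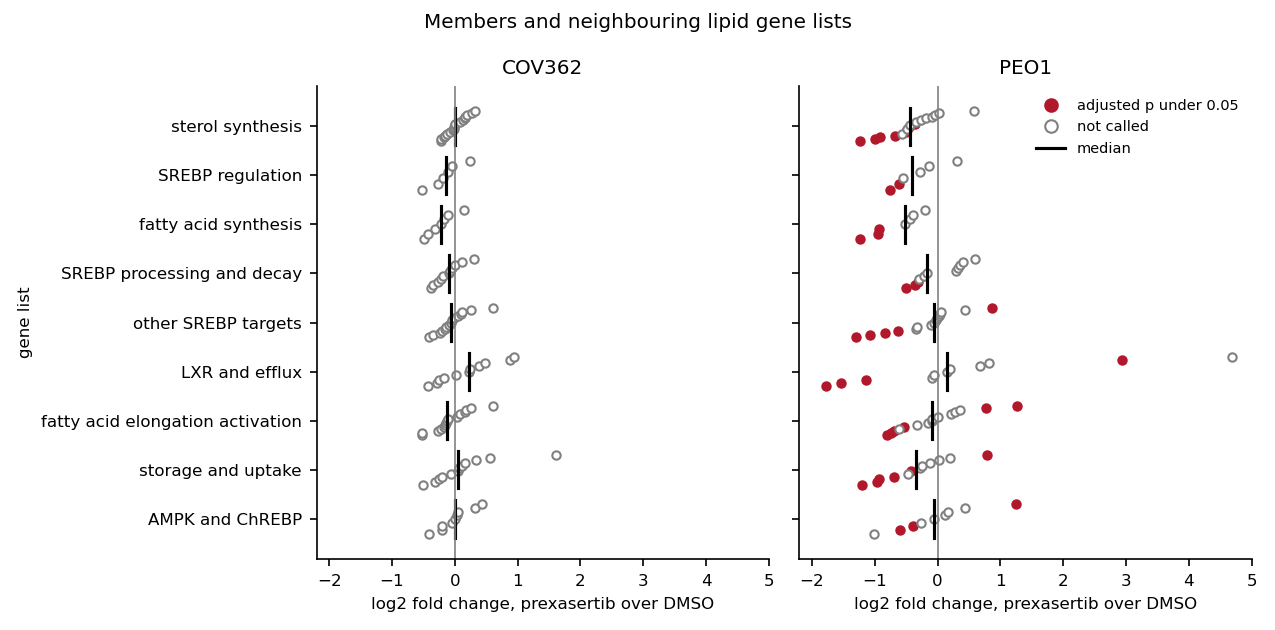
Log2 fold change with prexasertib of the members by role and of the 6 neighbouring lists, in COV362 (left) and PEO1 (right), with filled points for calls and a bar for each list's median. In PEO1 the 3 roles of the members have medians from −0.52 to −0.41 and called genes on the lower side alone. SREBP processing and decay also has called genes on the lower side alone (3 of 11). The lists of LXR, elongation, storage, AMPK and other SREBP targets hold called genes on both sides, with 1 or 2 higher in each. The open point near 4.69 is ABCG1, with 0 counts in PEO1 DMSO.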

How the data were processed

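Raw counts per gene for 12 libraries were used as the authors deposited them, with no normalization, in a table with exon coordinates and total exon length per the file headers. The tools named in the submitters' processing notes are STAR, Subread and featureCounts 1.4.6, with build hg38. Per the labels' protocols the library kit was TruSeq RNA v2 (Illumina); this kit is known to select polyadenylated RNA and to keep no strand.

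Totals ranged from 9390790 to 18262805 counts. Genes passing edgeR's filterByExpr (minimum count 10, minimum total 15; 14498 genes) were scaled by TMM and tested with edgeR 4.0.16 (R 4.3.3, quasi-likelihood F-test, 4 group means over 12 libraries, 8 residual degrees of freedom). P-values were adjusted by Benjamini-Hochberg over all tested genes in each of 4 comparisons, and calls were made under 0.05. CPM use the TMM-scaled library sizes; errors are SD over 3 libraries or SE of the fit. The scripts were tested on simulated data.

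The members and lists were chosen with earlier results of these data known. Values in every library are given, in each role, for up to 6 called members with the largest change in each drug comparison, for SREBF1, SREBF2, SCAP, INSIG1 and INSIG2, and for the 3 members that differed most between the DMSO groups; other lists give up to 3 called genes per line. One gene that this rule names is not reported here. Same-letter DMSO and prexasertib libraries correlated in their deviations from the group means at 0.410, 0.423 and 0.133 in COV362, so these letters were taken as pairs from the data. The C pair was weak there, as COV362 prexasertib C correlated slightly better with DMSO B (0.138). In PEO1 the A, B and C pairs were at 0.302, 0.171 and 0.0813. Because of the C pair the letters were not taken as pairs there. Alternatives were DESeq2 1.42.0, limma-voom (limma 3.58.1), other size factors, no count filter, the letter as a block, loess offsets for exon length (span 0.3), each line alone, libraries left out, a 1.5-fold minimum and a threshold of 0.01.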

Additional observations from a re-analysis of the deposited data

Results flagged for a closer look

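The change with prexasertib differed between the lines for 2 of 31 members and 7 of 73 tested genes of the neighbouring lists. Calls came from the test of the difference in edgeR (adjusted p under 0.05). Both members were more negative in PEO1, and of the 7 genes 5 were more negative and 2 more positive. Of all tested genes, 2.97% were called more negative and 3.14% more positive. Differences are PEO1 minus COV362 on the log2 scale, with SE. For MVD, the mevalonate route decarboxylase, the difference was −1.56 ± 0.41 (edgeR adjusted p = 0.0414), and for DHCR7, a reductase of late cholesterol synthesis, −0.90 ± 0.17 (edgeR adjusted p = 0.0117). Among other SREBP targets it was −1.16 ± 0.26 for PCYT2 (edgeR adjusted p = 0.0206) and −1.18 ± 0.27 for FADS3 (edgeR adjusted p = 0.0221). MYLIP had a higher change in PEO1, by 1.99 ± 0.38 (edgeR adjusted p = 0.0117), and values above 0 in both lines (2.94 in PEO1, 0.95 in COV362). For RXRA, the retinoid receptor that pairs with LXR, the difference was −0.90 ± 0.20 (edgeR adjusted p = 0.0231). For ELOVL1, an elongase, it was −0.70 ± 0.18 (edgeR adjusted p = 0.0367), from 0.17 in COV362 and −0.53 in PEO1. GPAM, which starts glycerolipid synthesis, differed by 1.10 ± 0.29 (edgeR adjusted p = 0.0428), from −0.32 in COV362 and 0.78 in PEO1. PLIN2, a lipid droplet coat gene, differed by −0.75 ± 0.21 (edgeR adjusted p = 0.0492), from 0.33 in COV362 and −0.42 in PEO1.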

How the results depend on the processing

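Of 2914 member values under the alternatives, 2687 kept their side of the threshold, 57 lost a call, 170 gained one and 0 changed sign with a call in either fit. Of the 1811 values uncalled in both fits, 68 changed sign. Length offsets used the deposited lengths, which for ACACA and LSS count a second sequence. The treatment time, the number of cultures and the isoforms are not resolved by these counts, and the cause of the changes listed here was not tested. The 21 higher and 4 lower members between the DMSO groups stayed within 1.5 times of those counts under every alternative run.

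Members lower in PEO1 with prexasertib (13, beside 14.6% of all tested genes) numbered 20 with length offsets (19.9%) and 3 with a 1.5-fold minimum (3.08%). DESeq2 called 18 (2738 of the 14498 tested genes) and limma-voom 15 (2280). There were 21 with PEO1 alone and 21 with the block in COV362 alone (chosen after seeing the data). For those settings the share over all tested genes is not given here. Members higher in PEO1 (0, beside 14.7%) numbered 1 with limma-voom (2360 of the 14498 tested genes) and 1 with length offsets (15.9%). There was also 1 in each of PEO1 alone, the fit without the A libraries and the block in COV362 alone. In COV362, members lower (0, beside 0.221%) numbered 1 with DESeq2 (1.67%), with length offsets and with the block in COV362 alone (2.21%). Members with a more negative change in PEO1 than in COV362 (2, beside 2.97% of all tested genes) numbered 8 with DESeq2 (8.73%). Limma-voom called 1 (2.69%) and edgeR with length offsets 10 (6.01%). There were 5 with RLE size factors and 12 with the block in COV362 alone, both without that share here. The 1.5-fold minimum and the 0.01 threshold left 0. Members with a more positive change (0) numbered 1 with the block in COV362 alone.

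With the letter as a block in both lines, the pairing gave 23 lower and 1 higher members in PEO1 and 3 lower in COV362. It gave 18 lower and 1 higher in the difference. Of the 14498 tested genes, 3700 were lower and 3746 higher in PEO1, and 1145 were lower in COV362. In the difference 2320 were lower and 2586 higher. With the replicate block and length offsets together, 24 members were lower and 1 higher in PEO1, and 4 lower and 1 higher in COV362. In the difference 18 were lower. Of all tested genes, 4193 were then lower and 3438 higher in PEO1, and 1046 lower and 816 higher in COV362. In the difference 2642 were lower. In PEO1, DMSO A and B each correlated best with the prexasertib library of the same letter (0.302 and 0.171). DMSO C instead correlated best with prexasertib B (0.222). All genes called with the block numbered 1977 in COV362 (120 without it), 7446 in PEO1 (4249) and 4906 in the difference (885), and with block and length offsets 1862, 7631 and 4817.

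All genes called in COV362 (120) numbered 533 with DESeq2, 223 with length offsets, 10 with COV362 alone, 330 without the A libraries, 642 with the block in COV362 alone, 16 with the 1.5-fold minimum and 35 at the 0.01 threshold. In PEO1 (4249) they numbered 1087 and 2319 in the last 2 settings. In the difference (885) they numbered 1966 with DESeq2, 1519 with length offsets, 3060 with the block in COV362 alone, 83 with the 1.5-fold minimum and 157 at the 0.01 threshold. Between the DMSO groups (8361) the 1.5-fold minimum left 5258.

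Leaving out each library in turn gave 9 to 17 lower and 0 to 1 higher members in PEO1, 0 to 0 in COV362, and 1 to 4 lower members in the difference: 4 without COV362 prexasertib B, 2 without A of either COV362 group, and 1 without any of the other 9. It gave 21 to 23 higher and 4 to 4 lower members between the DMSO groups. All genes called ranged over 27 to 128 in COV362, 3011 to 5053 in PEO1, 328 to 1756 in the difference and 7513 to 8901 between the DMSO groups.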
